A study of Mus musculus with 6 samples.

Results

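The Hox cluster genes are the homeobox genes of the HoxA, HoxB, HoxC and HoxD clusters. They were taken as every gene of the deposited table whose Ensembl identifier maps to a protein-coding symbol made of Hox, a cluster letter from a to d and a number. This rule found 38 of the 22933 genes in the table. The annotation holds 39 such genes, and Hoxd4 was not analysed here. RNA had been sequenced from mouse embryonic stem cells, which are pluripotent cells of the early embryo kept in culture, grown with serum and leukaemia inhibitory factor on gelatin. Every cell carried floxed alleles of Ezh2 (Ezh2 fl/fl). The first group of 3 libraries came from cells that received no tamoxifen and are labelled wild type for Ezh2, and the second group of 3 libraries came from cells given 4-hydroxytamoxifen at 800 nM for 96 h, labelled as Ezh2 knockout, with RNA taken on day 4. The labels name no group of vehicle-treated cells and do not say whether the replicates were separate cultures, so p-values measure only the spread between these libraries, which may be technical.

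Hox genes code for homeodomain transcription factors that give cells their identity along the head-to-tail axis. Genes at the 3' end of a cluster (low paralogue numbers) are switched on first and furthest forward in the embryo, and genes at the 5' end (high numbers) later and further back. In pluripotent cells the clusters are textbook targets of Polycomb repressive complex 2, whose catalytic subunit Ezh2 places methyl groups on lysine 27 of histone H3, and their promoters lie in stretches rich in CG dinucleotides.

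Promoters of 3 Hox genes are shown because they belong to genes at different read levels: Hoxb8, the gene with most reads, Hoxd13, with 24 reads in all, and Hoxd12, with none. Each line gives the 250 bases before the RefSeq start on GRCm38, read 5' to 3', with every CG in capitals, and none of the 3 windows overlaps an exon of the gene annotation.
Hoxb8 (chr11:96281655-96281904, plus strand): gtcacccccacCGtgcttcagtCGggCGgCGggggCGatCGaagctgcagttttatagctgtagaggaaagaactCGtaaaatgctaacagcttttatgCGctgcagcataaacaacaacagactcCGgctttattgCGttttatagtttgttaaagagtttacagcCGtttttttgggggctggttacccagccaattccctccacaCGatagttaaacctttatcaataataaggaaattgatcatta
Hoxd13 (chr2:74667975-74668224, plus strand): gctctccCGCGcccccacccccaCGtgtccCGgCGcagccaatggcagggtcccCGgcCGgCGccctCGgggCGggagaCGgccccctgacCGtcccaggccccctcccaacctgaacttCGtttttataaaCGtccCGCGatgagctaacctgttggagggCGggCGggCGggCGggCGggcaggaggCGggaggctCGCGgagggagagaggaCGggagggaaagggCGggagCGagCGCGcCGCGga
Hoxd12 (chr2:74674763-74675012, plus strand): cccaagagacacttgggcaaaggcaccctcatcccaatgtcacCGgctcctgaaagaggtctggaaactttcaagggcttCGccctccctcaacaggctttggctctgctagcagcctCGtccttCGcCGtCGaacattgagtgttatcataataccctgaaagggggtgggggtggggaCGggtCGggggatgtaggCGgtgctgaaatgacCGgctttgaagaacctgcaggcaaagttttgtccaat
The 3 windows held 12, 31 and 10 CG dinucleotides and 44.4%, 74.4% and 55.6% G plus C in this order. Over 24 such windows of 22 Hox genes in the RefSeq table, Hoxd4 among them, the median was 12.5 CG (range 2 to 35) and 58.6% G plus C. Over all 32841 promoters of the table the medians were 6 CG and 52.4% G plus C. The core TTTATG of sites bound by Cdx proteins, read on both strands, was found in 5 of the 24 Hox windows (20.8%) and in 10.8% of all promoters. The joint Pbx and Hox motif TGATNNAT was found in 4 windows (16.7%) and in 7.69% of all promoters, and the Hoxb8 window held both motifs. The DR5 direct repeat, the classical retinoic acid response element, was searched in its strict form on both strands and was in 0 of the 24 windows and in 0.00914% of all promoters. A match of these letters is a description of the window, not a site shown to be bound.

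Sequencing depth set what could be seen. Whole read counts were recovered from the deposited values, and their totals were 3855124, 5689666 and 2678202 for the untreated libraries and 3849367, 2334438 and 5110226 for the tamoxifen libraries, each in the order of replicates 1 to 3 that is kept from here on. The 10 most abundant genes took 20.2% to 36.7% of the reads of a library, the highest share in untreated replicate 3. Ezh2 itself had deposited values of 4165, 3620 and 3483 in untreated and 2258, 2559 and 2609 in tamoxifen libraries, groups that did not overlap. The limma difference was -0.60 on the log2(value + 1) scale with an adjusted p of 0.195, so the difference did not pass the test. In RPM (reads of a gene scaled to a library total of 1000000) the Ezh2 groups overlapped, at 180, 97.9 and 67.6 against 72.0, 123 and 102. On recovered reads limma gave -0.13 with an adjusted p of 0.975, and the difference was -0.38 against the median of all genes. With trimmed-mean (TMM) factors, which offset the share taken by abundant genes, the Ezh2 groups did not overlap. They were 159, 103 and 99.3 against 82.1, 95.1 and 85.2 scaled RPM. Ezh2 RNA was present in every tamoxifen library. Each value covers the whole gene, so RNA from a deleted allele and RNA from an intact allele cannot be told apart. How complete the deletion was could therefore not be tested.

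Hox transcripts were rare in both groups, with a single exception. The 38 genes had 2648 reads over the 6 libraries, and Hoxb8 alone had 2129 of them (80.4%). The next gene, Hoxa3, had 159 reads. No read at all was found for 5 genes (Hoxa4, Hoxa6, Hoxc10, Hoxd10 and Hoxd12), which allows up to 3 reads, or 0.128 RPM, over all libraries. A further 12 Hox genes had 1 or 2 reads, 18 had 3 to 59 and 3 had 60 or more. Of the 19509 other protein-coding genes, 12.5% had no read, 5.997% had 1 or 2, 23.5% had 3 to 59 and 58.0% had 60 or more, against 13.2%, 31.6%, 47.4% and 7.89% of the Hox genes. The Hox genes were thus spread mostly over the low classes, with a share at 0 close to that of other genes.

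Hox genes with reads in 1 group only had very few of them. Reads were found in both groups for 21 Hox genes, in untreated libraries only for 8 (none above 2 reads) and in tamoxifen libraries only for 4 (none above 4 reads). Between 18 and 24 Hox genes had a read in each untreated library, and 20, 13 and 21 in tamoxifen replicates 1 to 3. The lowest number came from tamoxifen replicate 2, the library with the fewest reads. In 7 Hox genes every library held at least 1 read.

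**Figure D1:**
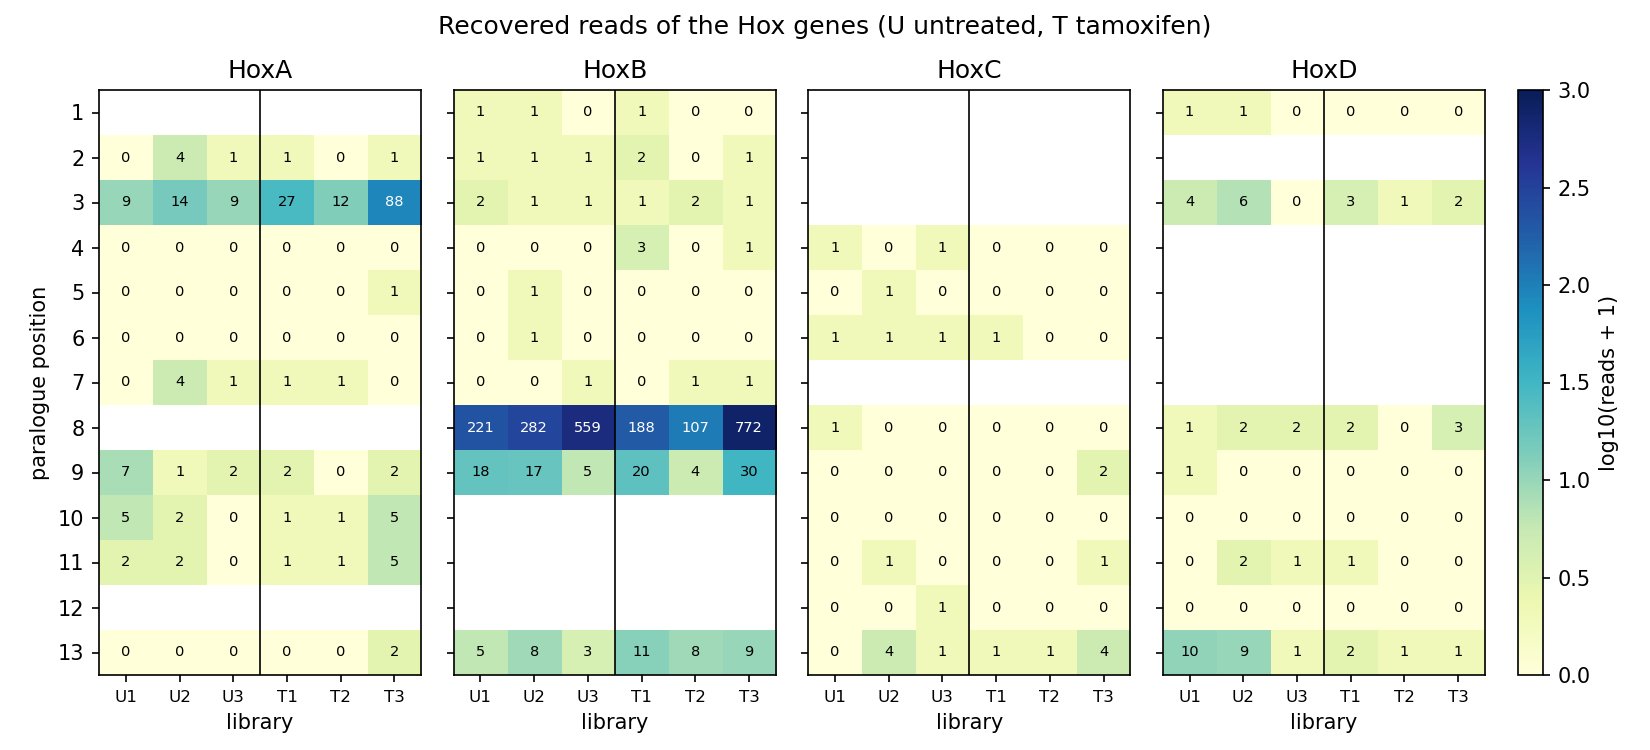
Recovered reads of each Hox gene by cluster (panels), paralogue position (rows, 1 at the 3' end) and library (columns, U untreated and T tamoxifen replicates 1 to 3), with the number of reads printed in each cell and the colour giving log10(reads + 1); white cells hold no gene or none reported here. Hoxb8 stands apart from every other gene in all 6 libraries, and most cells outside Hoxb8, Hoxb9, Hoxb13 and Hoxa3 hold 0 to 5 reads.

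Among the anterior genes (paralogues 1 to 3), which act in the hindbrain and neck region, Hoxa3 held most reads. Hoxa3 (ENSMUSG00000079560, chromosome 6 from 52169062 to 52213336, minus strand, GRCm38) patterns the throat arches and the organs made from them. It had 9, 14 and 9 reads in untreated and 27, 12 and 88 in tamoxifen libraries, which came to 2.33, 2.46 and 3.36 RPM against 7.01, 5.14 and 17.2 RPM. All 3 tamoxifen libraries were above all untreated ones, with replicate 3 far above the others. The means were 2.72 ± 0.559 RPM in untreated and 9.79 ± 6.501 RPM in tamoxifen libraries (SD, n = 3 each), a ratio of 3.60.

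The Hoxa3 difference did not pass the test over all genes. On the deposited values it was 1.29 ± 0.49 log2 units (SE; 95% interval 0.11 to 2.47), with an unadjusted p of 0.0366 and an adjusted p of 0.511 by limma. On recovered reads limma gave 1.63 log2 units (0.60 to 2.66) with an adjusted p of 0.308. Without tamoxifen replicate 3 the difference on deposited values was 0.92. Plain scaling by total reads moves the median of all genes by 0.25 log2 units toward the tamoxifen group, and against that median the Hoxa3 difference was 1.38. The exact permutation test on RPM gave a two-sided p of 0.1, the smallest that 3 against 3 libraries allow. With TMM factors the Hoxa3 groups overlapped (2.06, 2.58 and 4.94 against 8.00, 3.96 and 14.4 scaled RPM). The deposited values of untreated replicate 3 and tamoxifen replicate 2 were 135.7 and 136.1, so the groups lay apart there by a narrow margin. The annotated body of Hoxa3 spans Hoxa4, Hoxa5 and Hoxa6, which had 0, 1 and 0 reads. Its exons overlap the antisense genes Hoxaas2, Hoxaas3 and Gm29430 and the gene 5730596B20Rik. They also overlap Gm28308, a protein-coding gene on the same strand that was not analysed here. The kit was directional but the strand setting of the counting is not stated, so reads of Hoxa3 and of its antisense partners cannot be told apart. Strand would not separate reads of Hoxa3 from those of Gm28308.

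Other anterior genes had few reads. Hoxd3 had 4, 6 and 0 reads in untreated and 3, 1 and 2 in tamoxifen libraries. Hoxb3 had 2, 1 and 1 against 1, 2 and 1, and Hoxb2 had 1, 1 and 1 against 2, 0 and 1. Hoxa2, needed for the second throat arch, had 0, 4 and 1 against 1, 0 and 1 reads. Hoxb1 had 1, 1 and 0 against 1, 0 and 0, and Hoxd1 had 1, 1 and 0 against 0, 0 and 0. At these depths neither a rise nor a fall in these genes was detectable.

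Hoxb8 (ENSMUSG00000056648, chromosome 11 from 96281905 to 96285315, plus strand), a central gene also known for holding blood progenitors in an immature state, was the Hox gene with most reads in every library. It had 221, 282 and 559 reads in untreated and 188, 107 and 772 in tamoxifen libraries. These came to 57.3, 49.6 and 209 RPM against 48.8, 45.8 and 151 RPM, with group means of 105 ± 89.7 and 81.9 ± 59.9 RPM (SD, n = 3 each). Replicate 3 was high in both groups, and the remaining 4 libraries lay between 45.8 and 57.3 RPM, with both tamoxifen libraries below both untreated ones. This order was lost with TMM factors (50.5 and 52.0 against 55.7 and 35.3 scaled RPM). It was also lost on deposited values (5526 and 3931 against 5389 and 4308).

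The Hoxb8 difference between the groups was -0.07 ± 0.45 log2 units on the deposited values (SE; interval -1.15 to 1.01; adjusted p of 0.985 by limma). This interval reaches beyond a doubling and a halving on either side. On recovered reads the difference was -0.52 log2 units against the median of all genes. Without replicate 3 of both groups it was 0.048 on the deposited values, which turned its sign. Replicate 3 held 3.64 times the higher of the other untreated RPM values and 3.09 times the higher of the other tamoxifen values. By the smaller of both ratios Hoxb8 ranked number 4 of 11843 genes with at least 10 reads on average, where the median was 0.518 and 8 genes reached 2. The labels give no culture date or batch for replicate 3, and the part of such a factor in the Hoxb8 level was not tested. Per kb of transcript, Hoxb8 had a mean of 35.5 RPM per kb (range 17.4 to 79.2). Protein-coding neighbours within 200 kb of HoxB ran from 0.259 (Gip) to 39.7 (Igf2bp1), with the nearest, Ttll6, at 1.42. By the same measure Hoxb9 had 1.44, Hoxa3 1.04 and Hoxb13 0.897. The ranges of these 3 Hox genes over the libraries overlapped one another, and none reached that of Hoxb8.

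**Figure D2:**
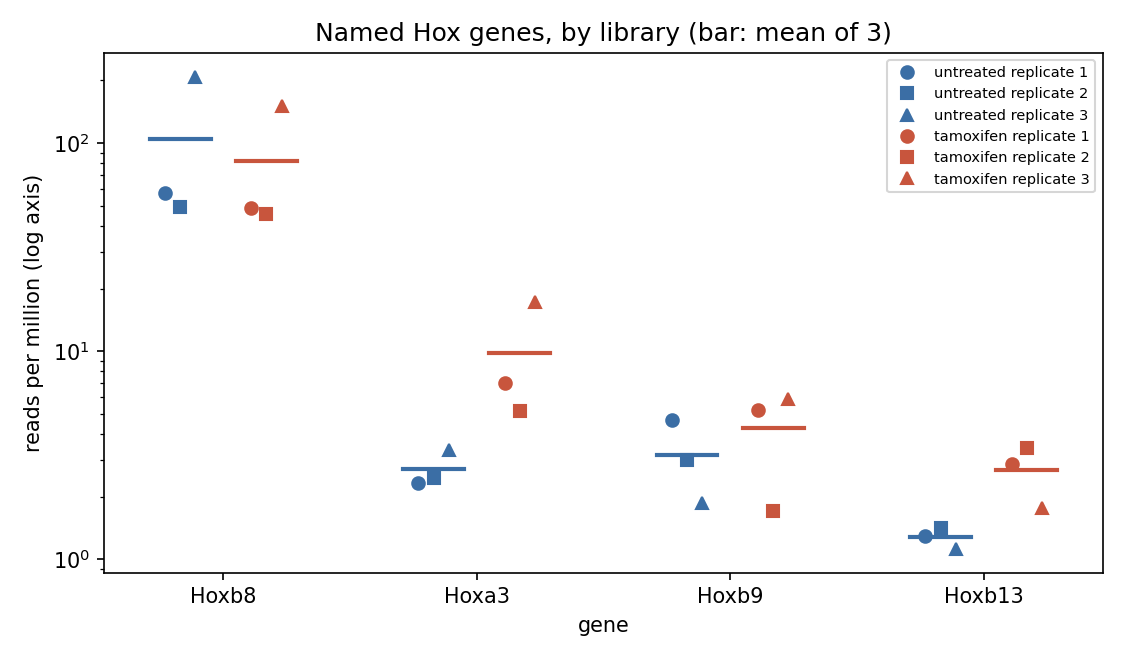
RPM (log axis) of Hoxb8, Hoxa3, Hoxb9 and Hoxb13, with a marker shape for each replicate number, blue for untreated and red for tamoxifen, and a bar at the mean of 3 libraries. Hoxb8 is at 209 and 151 RPM in the replicate 3 libraries and at 45.8 to 57.3 RPM in the other 4, while Hoxa3 and Hoxb13 have every tamoxifen library above every untreated one on this scale; with TMM factors the groups of both genes overlap.

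The remaining central genes (paralogues 4 to 8), which act along the trunk, held 20 reads in untreated and 15 in tamoxifen libraries. Hoxd8 had 1, 2 and 2 reads against 2, 0 and 3. Hoxa7 had 0, 4 and 1 against 1, 1 and 0, and Hoxb7 had 0, 0 and 1 against 0, 1 and 1. Hoxc6 had 1 read in each untreated library and in tamoxifen replicate 1. Hoxb4, a gene used to expand blood stem cells, had no read in untreated libraries and 3, 0 and 1 in tamoxifen libraries, of which 3 of 4 lay in replicate 1, and limma gave an adjusted p of 0.668 on deposited values. Hoxa5, Hoxb5, Hoxb6, Hoxc4, Hoxc5 and Hoxc8 had 1 or 2 reads each. The immediate neighbour of Hoxb8 on the 3' side, Hoxb7, thus had 3 reads where Hoxb8 had 2129.

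Among the posterior genes (paralogues 9 to 13), which act in the lower trunk, limbs and tail, Hoxb9, Hoxb13 and Hoxd13 held most reads. Hoxb9, on the 5' side of Hoxb8, had 18, 17 and 5 reads against 20, 4 and 30, or 4.67, 2.99 and 1.87 RPM against 5.20, 1.71 and 5.87 RPM. The groups overlapped, and the limma difference was 0.12 ± 0.32 log2 units (SE; interval -0.64 to 0.89; adjusted p of 0.920). Unlike Hoxb8, Hoxb9 was lowest of the untreated libraries in replicate 3.

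Hoxb13 (ENSMUSG00000049604, chromosome 11 from 96194316 to 96197447, plus strand), a gene of the tail and the prostate, had 5, 8 and 3 reads in untreated and 11, 8 and 9 in tamoxifen libraries. These were 1.30, 1.41 and 1.12 RPM against 2.86, 3.43 and 1.76 RPM, without overlap. The limma difference on deposited values was 0.49 ± 0.21 log2 units (SE; interval -0.03 to 1.01; adjusted p of 0.545). The deposited values of untreated replicate 2 and tamoxifen replicate 3 were 443.1 and 443.7, so the groups lay apart there by a narrow margin. With TMM factors the groups overlapped (1.14, 1.48 and 1.65 against 3.26, 2.64 and 1.47 scaled RPM). Hoxb8, Hoxb9 and Hoxb13 overlap no other annotated gene, which holds for 16 of the 38 members.

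Hoxd13, needed in digits and the genital region, went the other way in its counts, with 10, 9 and 1 reads in untreated and 2, 1 and 1 in tamoxifen libraries. The value of tamoxifen replicate 2 was also solved by 111 reads, so its 1 read was a choice and the direction depends on it. Untreated replicate 3 lay among the tamoxifen libraries, so the groups touched. On deposited values limma gave -1.46 log2 units (interval -7.94 to 5.02) with an unadjusted p of 0.604, and without tamoxifen replicate 3 the difference turned to 0.48. It was -0.097 without untreated replicate 1 and -0.15 without untreated replicate 2. On recovered reads the difference was also -1.46 log2 units, with an unadjusted p of 0.0456 and an adjusted p of 0.713. Of the other posterior genes, Hoxa9 had 7, 1 and 2 reads against 2, 0 and 2, Hoxa10 had 5, 2 and 0 against 1, 1 and 5, and Hoxa11 had 2, 2 and 0 against 1, 1 and 5. Hoxc13 had 0, 4 and 1 against 1, 1 and 4, and Hoxd11 had 0, 2 and 1 against 1, 0 and 0. These genes, which pattern limb and lower trunk segments, overlapped between the groups. Hoxa13, Hoxc9, Hoxc11, Hoxc12 and Hoxd9 had 1 or 2 reads each.

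Summed by cluster, HoxA had 85 reads in untreated and 189 in tamoxifen libraries, but 53 and 62 without Hoxa3. HoxB had 1130 and 1163 reads, or 68 and 96 without Hoxb8. HoxC had 14 and 10 reads and HoxD had 41 and 16. In RPM HoxD was at 4.41, 3.52 and 1.49 against 2.08, 0.857 and 1.17, so its groups overlapped. The HoxD sum takes 1 read for Hoxd13 in tamoxifen replicate 2, where 111 also solved the value. The direction of the HoxD difference depends on that choice. The groups had 12222992 and 11294031 reads in total, so the HoxA difference rested on Hoxa3 and much of the HoxD difference on Hoxd13. By position, anterior genes had 80 and 180 reads, central genes 1082 and 1082, and posterior genes 108 and 116. In summed reads, no position class beyond the anterior one, where Hoxa3 lies, had a difference of that size. These sums pool libraries of unlike depth. Replicate 3 held 565 of the central reads in untreated and 778 in tamoxifen libraries. In RPM the central genes were at 58.4, 51.3 and 211 against 50.7, 46.7 and 152, so the equal sums do not show equal levels. Of the anterior reads, 88 were those of Hoxa3 in tamoxifen replicate 3.

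Over all Hox genes the sums were 77.8, 66.1 and 222 RPM in untreated and 72.5, 65.1 and 185 RPM in tamoxifen libraries. The means were 122 ± 86.7 and 108 ± 67.4 RPM (SD, n = 3 each), a ratio of 0.883 that lay well inside the spread of either group. Without Hoxb8 the sums were 20.5, 16.5 and 13.1 RPM against 23.6, 19.3 and 34.2 RPM, a ratio of 1.54, and the groups overlapped. Without Hoxb8 and Hoxa3 the Hox genes had 176 reads in untreated and 184 in tamoxifen libraries. The higher sum without Hoxb8 was therefore carried mainly by Hoxa3.

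No Hox gene passed the test. Of the 38 genes, 22 passed the filter of a mean deposited value of at least 10, and limma called 0 of these 22 at an adjusted p under 0.05, where it called 34 of 17427 genes (0.195%; 22 higher and 12 lower). At an unadjusted p under 0.05 it found 1 Hox gene, Hoxa3, against 9.34% of all genes tested. On recovered reads it called 0 Hox genes and 6 genes in all (0.0344%), with 2 Hox genes, Hoxa3 and Hoxd13, at an unadjusted p under 0.05 against 6.92% of all genes. Of the 22 tested Hox genes 10 were higher and 12 lower, with a median of -0.61 log2 units against -0.0037 over all genes tested. The filter fixed some of these directions in advance. Hoxc4, Hoxd1, Hoxc12 and Hoxd9 had no read in tamoxifen libraries and passed it through their untreated values alone. Hoxb4 had no read in untreated libraries and passed it through its tamoxifen values alone. The split and the median therefore describe the filtered genes and are no evidence of a shift. Groups did not overlap on RPM, with tamoxifen higher, for 3 of the 22, Hoxb13 and Hoxa3 among them, where 8.19% of all genes tested did so. With TMM factors this held for 1 of the 22, neither Hoxb13 nor Hoxa3, against 6.27% of all genes, and on deposited values for the same 3 genes as on RPM, against 7.92%. Of the 3 Hox genes with at least 10 reads on average, Hoxa3 had such groups on RPM, against 7.95% of genes of that depth. No tested Hox gene had all tamoxifen libraries lower on RPM or on deposited values, where 1.25% and 7.33% of all genes did.

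Most of the 22 tested Hox genes had hardly any reads, and at such counts the deposited values did not follow the reads. A single read of a Hox gene carried a deposited value between 0.885 and 850 over 53 such values, with a median of 9.73. Of these, 22 were under 1 and 11 over 100. Hoxd13 had 0.885 at 1 read in untreated replicate 3 and 98.2 in tamoxifen replicate 2, where both 1 and 111 reads solved the value. A second solution also existed for Hoxd8 in untreated replicate 1 (11 reads), Hoxd1 in untreated replicate 2 (31) and Hoxb2 in tamoxifen replicate 3 (61). In each case 1 read was taken. When a mean of 10 reads was required, 3 Hox genes (Hoxb8, Hoxa3 and Hoxb9) could be tested, and their median was 0.12.

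**Figure D3:**
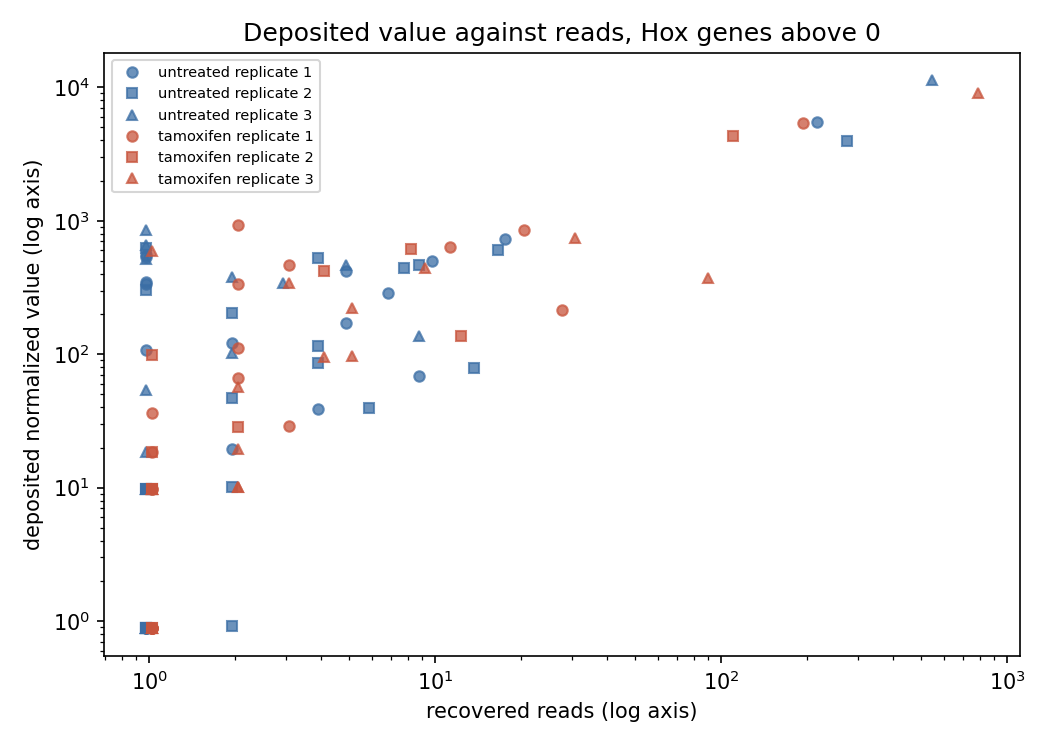
Deposited normalized value against recovered reads for the Hox genes and libraries above 0 (both axes log; blue untreated, red tamoxifen, a marker for each replicate number; groups are shifted sideways by a small amount so that points can be seen). At 1 read the values run from 0.885 to 850, and Hoxb8 forms the group at the upper right with 107 reads or more.

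The genes around the clusters were described for comparison. Within 200 kb of the outermost Hox genes, 17 of 19 annotated protein-coding genes were in the table, and 13 had at least 10 reads on average, against 3 of the 38 Hox genes. None of them was called. Ttll6, a tubulin-modifying enzyme 28.9 kb beyond Hoxb13, had 16, 18 and 5 reads in untreated and 25, 23 and 38 in tamoxifen libraries, a limma difference of 1.22 ± 0.34 log2 units (SE; adjusted p of 0.370). Calcoco2, an autophagy receptor 82.4 kb beyond Hoxb13, had 38, 62 and 16 against 55, 86 and 85 reads, a difference of 0.94 ± 0.31 log2 units (SE; adjusted p of 0.466). Gm53, the only 1 of 49 annotated noncoding genes of the clusters that is in the table, lies between Hoxb13 and Hoxb9 (chromosome 11 from 96251105 to 96264868). It had 29, 20 and 2 against 36, 31 and 60 reads, a difference of 1.40 ± 0.51 log2 units (SE; adjusted p of 0.495). For Ttll6, Calcoco2 and Gm53 every tamoxifen library was above every untreated one on RPM, TMM-scaled RPM and deposited values, as 8.19%, 6.27% and 7.92% of all genes tested were. Of the 13 neighbours, 2 had such groups on RPM and 0 were lower throughout. On deposited values 3 were higher (Ube2z, Ttll6 and Calcoco2) and 2 were lower throughout (Skap2 and Smug1). Calcoco2, Ttll6, Hoxb13 and Gm53 form a run on the 5' side of HoxB in which RPM was higher in every tamoxifen library, with overlap for Hoxb13 under TMM factors. None of them passed the test, and the run was picked out after the values were seen. On the other sides, the differences of Skap2 beside HoxA, Skap1 beside HoxB, Calcoco1, Smug1 and Cbx5 around HoxC, and Lnpk and Mtx2 around HoxD lay between -0.42 and 0.36 log2 units.

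**Figure D4:**
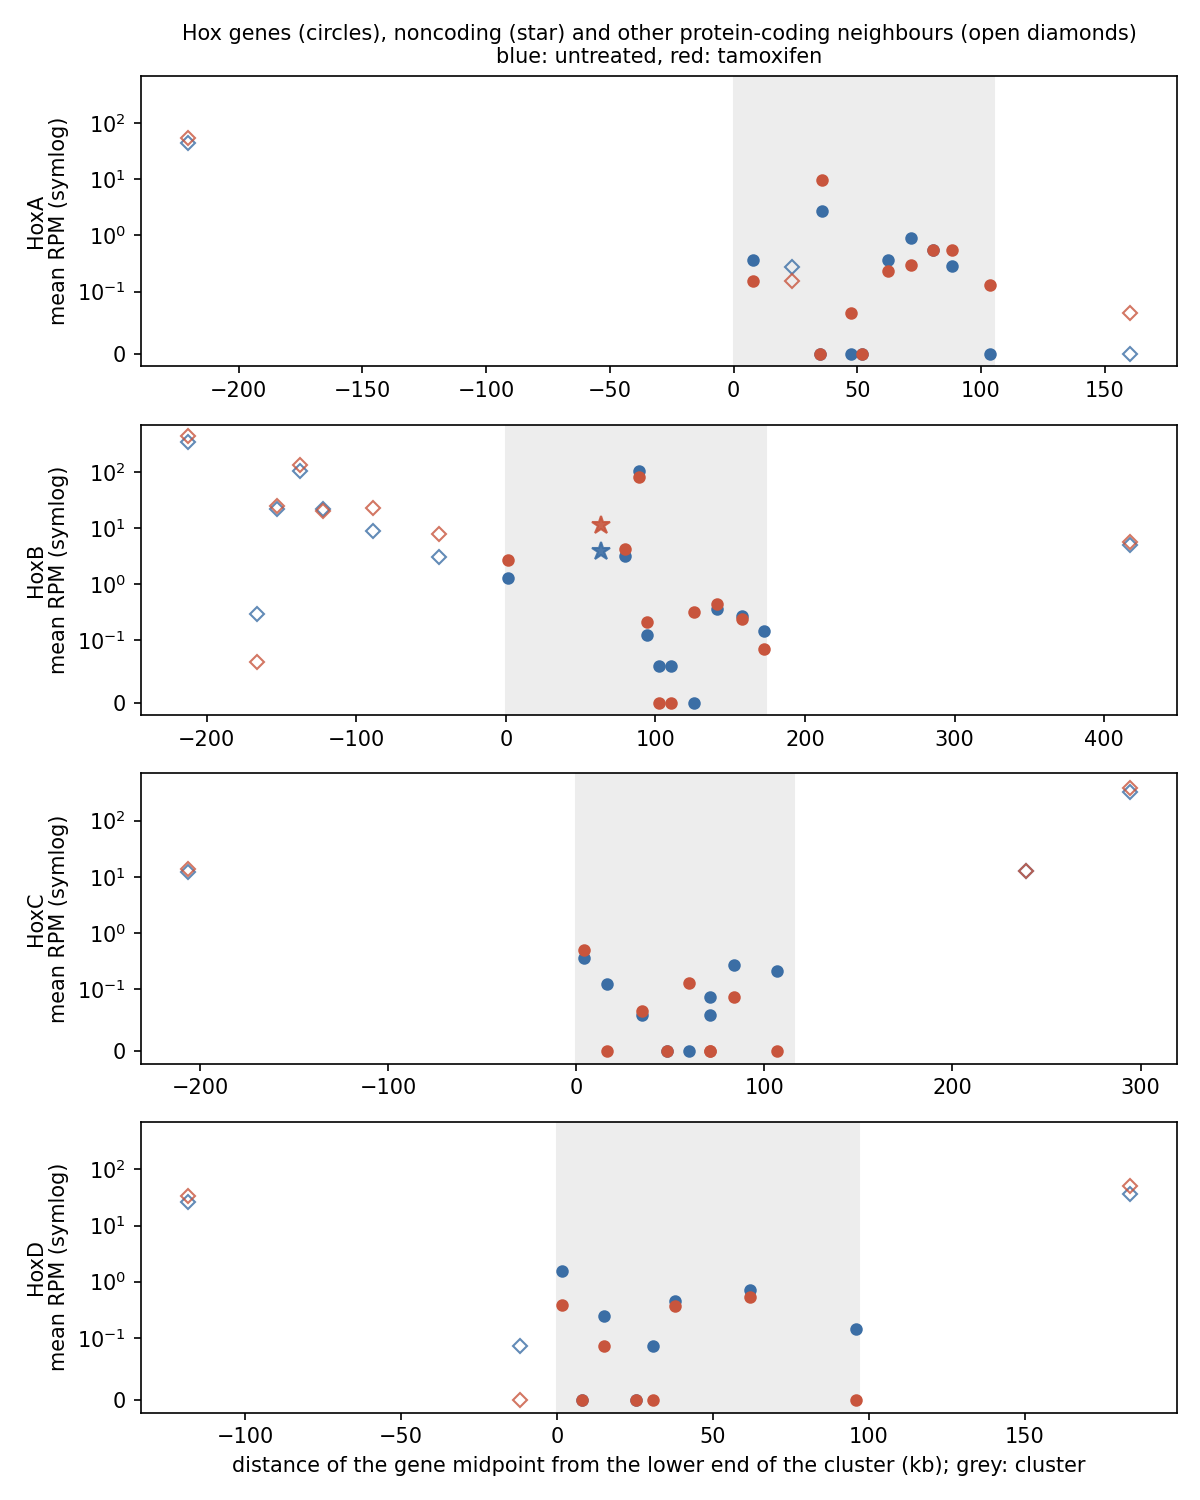
Mean RPM (axis linear below 0.1 and logarithmic above) against the distance of the gene midpoint from the lower end of each cluster, with Hox genes as circles, the noncoding gene Gm53 as a star and other protein-coding neighbours as open diamonds, blue for untreated and red for tamoxifen; grey marks the cluster. Most neighbours stand above 10 RPM, most Hox genes below 1 RPM, and Hoxb8 at 105 and 81.9 RPM lies within the range of its neighbours.

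Pathway partners of the Hox genes were read from the same fit of deposited values, and none was called in either direction. The cofactors of the Pbx, Meis and Pknox families bind DNA with Hox proteins. Of the 9 cofactors tested 8 were higher, with a median of 0.62 log2 units. Meis1 had 25, 17 and 6 reads in untreated and 47, 53 and 97 in tamoxifen libraries, a difference of 2.56 log2 units with an adjusted p of 0.101. Meis2 differed by 1.72 log2 units with an adjusted p of 0.511. Activators and upstream regulators, among them the trithorax methyltransferases, Cdx factors and retinoic acid genes, numbered 36, of which 34 were tested, 21 higher and 13 lower, with a median of 0.19. Their members of smallest p with at least 10 reads on average were Hmga2, Gata6, Crabp1 and Kdm6a, with differences of 2.02, 1.24, -0.66 and -0.42 log2 units in this order, the last a demethylase of the mark that Ezh2 places. The 25 Polycomb genes had 11 higher and 14 lower and a median of -0.05. Of the ParaHox and Evx genes, the sister genes of the Hox clusters, 4 of 8 were tested, with 3 higher, 1 lower and a median of 1.38. Only 2 of them, Gsx1 and Cdx1, had at least 10 reads on average. Gsx1 differed by 1.68 ± 4.14 log2 units (SE), with 836 reads in tamoxifen replicate 3 and 0 to 4 in every other library. Cdx1, a direct activator of Hox genes, had 18, 25 and 5 against 17, 34 and 41 reads with an adjusted p of 0.592.

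Markers of the cells were measured in the same libraries. The 8 markers of pluripotent cells summed to 919.6 to 1581 RPM in untreated and 1158 to 1573 RPM in tamoxifen libraries, with 3 higher and 5 lower. The 9 primitive endoderm markers were all higher, with sums of 196 to 389 RPM against 640 to 927 RPM and a median of 1.27 log2 units, and 0 were called. Trophoblast markers summed to 52.7 to 103 RPM against 132 to 152 RPM, with 7 of 7 tested higher, 0 called on deposited values and 1 on recovered reads. Only 4 trophoblast markers, Eomes, Tfap2c, Krt8 and Krt18, had at least 10 reads on average. Tfap2c and the keratin genes Krt8 and Krt18 made up most of each sum. Cdx2 had 2, 1 and 0 against 1, 1 and 3 reads. Markers of mesoderm and the posterior primitive streak, where Hox genes are first switched on, summed to 3.73 to 7.52 RPM against 7.27 to 18.4 RPM, with Fgf8 and Msgn1 at 0 reads. Of the 6 tested, 2 (Cdx1 and T) were higher and 4 lower, with a median of -0.53 log2 units, and only Cdx1 had at least 10 reads on average. Markers of fibroblasts, which can be left from feeder layers and hold Hox RNA, summed to 6.35 to 15.8 RPM against 10.7 to 22.1 RPM, with Lum at 0, and 5 of 7 tested were higher. Neural markers summed to 45.6 to 98.8 RPM against 48.8 to 93.8 RPM, and Stmn2 made up most of each sum. Of the 8 tested, 6 were higher, with a median of 0.87 log2 units. Only 2 neural markers, Stmn2 and Olig2, had at least 10 reads on average, and they differed by -0.47 and 0.099. The median thus rested on genes with few reads. Whether the cells that carry these markers have a part in the Hoxa3 and Hoxb13 values was not tested, and in bulk RNA fewer cells and less RNA per cell cannot be told apart.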

How the data were processed

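Total RNA, depleted of ribosomal RNA with Ribo-Zero Gold, was sequenced as directional libraries, per the labels' protocols, from 3 untreated and 3 tamoxifen-treated samples. Per the submitters' processing notes, the tools were TopHat2, DESeq2 and bedtools (versions not given in the sources used here) on mm9; annotation, strand setting and counting rule are not given in the sources used here. The deposited table holds a normalized signal per gene, made by the authors. With k and m whole, 9.73 × k × (m + 0.1) / (k + 0.1) returns all 100305 values that exceed 0, and k was taken as the reads. A single solution existed for 98.9% of them. Of the remaining 1153, the ratio m/k in other libraries of that gene decided 1047, and the ratio nearest 1 the rest.

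log2(value + 1) was compared with limma 3.58.1 (trend, R 4.3.3) over the 17427 genes whose mean value was at least 10, with Benjamini-Hochberg adjustment and a threshold of 0.05. The fit was planned for values divided by 1 factor per library and was kept. Single genes were also compared by two-sided exact permutation tests, and TMM factors came from code written for this purpose. Symbols and coordinates are from GENCODE vM21 (GRCm38), for 20273 genes; promoters are from RefSeq (GRCm38.p6). Hox genes with at least 3 reads in total were named with their reads and the others named and counted, with full statistics from 10 reads on average (Hoxb13 and Hoxd13 were added after their values were seen). Some results are not reported here. Up to 4 genes of smallest p were named from a list, and the 2 nearest neighbours per side. The members and lists were chosen with earlier results of these data known. Alternatives were other filters, scalings, pseudocounts and omitted libraries. Python 3.11.15, numpy 2.4.6, pandas 2.3.3 and matplotlib 3.10.9 did the rest.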

Additional observations from a re-analysis of the deposited data

How the results depend on the processing

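No Hox gene was called by limma under any of the 17 alternatives tried. The smallest adjusted p of a Hox gene over these limma fits was 0.055, without untreated replicate 2. Where at least 10 reads on average were required, only 3 Hox genes were tested. Over all genes, 34 calls became 6 on recovered reads, 15 with at least 10 reads on average, 52 without a filter, 52 with a pseudocount of 10 and 62 without the trend. Leaving out 1 library in turn gave 32 to 56 calls. Over genes, deviations from the group means hardly correlated between libraries of the same replicate number (-0.0072, -0.049 and 0.0048). This cannot settle whether the samples were paired, since a factor that moves only some genes would barely change it. A replicate block gave 0 calls by limma, with 1393 genes at an unadjusted p under 0.05. Settings chosen after seeing the data gave 13 calls on reads with at least 10 on average and 0 without replicate 3 of both groups, with 1087 genes at an unadjusted p under 0.05.

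The Hox median of -0.61 became -0.21 on reads, 0.12 with at least 10 reads on average (3 genes), -0.30 without a filter, -0.92 after quantile normalization, 0.34 on reads with at least 10 on average and -1.79 without replicate 3 of both groups. Leaving out 1 library gave -1.71 (without tamoxifen replicate 1) to 0.16 (without tamoxifen replicate 2). The summed Hox ratio of 0.883 became 1.54 without Hoxb8, and 0.564 to 1.496 with 1 library left out. With 1 library left out, Hoxb8 lay between -0.40 and 0.35 and Hoxb9 between -0.084 and 0.43. Without replicate 3 of both groups they were 0.048 and -0.14. Hoxa3 kept its direction, at 0.92 to 1.64. The cause of these shifts was not tested. Most Hox genes had too few reads for a change to be seen.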

Other observations

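Gsx1, a ParaHox gene of the developing brain, had 0, 4 and 1 reads in untreated libraries and 0, 4 and 836 in tamoxifen libraries. The high level rested on tamoxifen replicate 3 alone, the library that also held most Hoxa3 reads. With 5110226 reads it was the deepest tamoxifen library, and a link between both genes was not tested. Gsx2 had no read in any library.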
